A study of Mus musculus with 10 samples.

Results

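The 37 genes described here encode the machinery that carries proteins into mitochondria. They were taken as a fixed list of gene symbols from the authors' deposited table of 23337 genes, 34 by their current symbol and 3 by an older symbol that RefSeq lists for the same gene (Fxc1 for Timm10b, 1700034H14Rik for Timm21 and 4930455C21Rik for Timmdc1). All 37 carried an adjusted p-value, so none was lost to a filter on low values. The list did not draw on expression values, although it was drawn up when earlier results of these data were known.

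Cardiomyocytes came from wild-type mice in 2 groups of 5 biological replicates, named GFP and dnMKL1 in the labels. Both groups received AAV9 virus with the cTNT promoter, that of cardiac troponin T, which is active in heart muscle cells. In the GFP group the virus carried GFP alone, and in the dnMKL1 group it carried dnMKL1 together with GFP; dnMKL1 is a dominant-negative MKL1, a coactivator of transcription. Injection was on postnatal day 1 with 5e+08 viral genomes per gram, and cells were collected on postnatal day 14 by collagenase perfusion and fluorescence-activated sorting. The comparison asks how transcripts of heart muscle cells differ when dnMKL1 is present.

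Nearly all mitochondrial proteins are encoded in the nucleus, made in the cytosol and imported. The TOM complex of the outer membrane is the common entry gate, from which proteins pass to the SAM complex (outer membrane barrels), to the small TIM chaperones and the TIM22 complex (inner membrane carriers), or to the TIM23 complex and its motor (matrix proteins with a cleavable presequence). Heart muscle cells are packed with mitochondria, and their mitochondrial mass grows after birth.

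The deposited table compares the groups and gives no value per library, so levels are given as group means implied by the deposited base mean and fold change, in normalized counts. Normalized counts are reads divided by the size factor of each library, and the base mean is their average over the 10 libraries. The standard error (SE) of each log2 fold change carries the spread between the 5 replicates of each group. The sign was read from Mkl1, whose implied mean went from 83.9 normalized counts in GFP to 74899 in dnMKL1, so negative values mean lower expression with dnMKL1. Size factors recovered from genes with a single read ran from 0.660 to 1.58, which puts the estimated depth between 8803029 and 17228615 counts per library, with the groups overlapping.

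Promoters of the metaxins and of Timm23 are shown first, since Mtx2 was the only one of the 3 metaxins that fell and Timm23 encodes the central inner membrane channel; these 4 were picked with their values known. Each window is RefSeq sequence on GRCm38.p6, 250 bases before to 50 bases after a start site of the gene, printed 5′ to 3′ on the gene's strand. For Mtx3 that site lies downstream of the listed gene start at 92844743. Distances are counted from the site of the window. Capitals mark matches on either strand to CCGGAAGT, a motif of ETS factors, and AAGATGGCG, a motif of YY1.
Mtx2 (chr2:74825562-74825861, plus strand): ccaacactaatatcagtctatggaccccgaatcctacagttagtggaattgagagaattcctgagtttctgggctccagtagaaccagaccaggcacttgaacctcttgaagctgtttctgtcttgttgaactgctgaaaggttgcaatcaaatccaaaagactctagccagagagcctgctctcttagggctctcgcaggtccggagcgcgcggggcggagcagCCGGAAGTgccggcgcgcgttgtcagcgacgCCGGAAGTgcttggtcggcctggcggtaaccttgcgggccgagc
Mtx3 (chr13:92844518-92844817, plus strand): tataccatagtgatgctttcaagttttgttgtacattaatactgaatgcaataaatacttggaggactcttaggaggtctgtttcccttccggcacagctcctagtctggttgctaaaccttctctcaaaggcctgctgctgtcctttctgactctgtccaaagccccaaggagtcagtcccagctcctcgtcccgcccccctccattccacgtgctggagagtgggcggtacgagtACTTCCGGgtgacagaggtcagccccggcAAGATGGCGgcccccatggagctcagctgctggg
Mtx1 (chr3:89213858-89214157, minus strand): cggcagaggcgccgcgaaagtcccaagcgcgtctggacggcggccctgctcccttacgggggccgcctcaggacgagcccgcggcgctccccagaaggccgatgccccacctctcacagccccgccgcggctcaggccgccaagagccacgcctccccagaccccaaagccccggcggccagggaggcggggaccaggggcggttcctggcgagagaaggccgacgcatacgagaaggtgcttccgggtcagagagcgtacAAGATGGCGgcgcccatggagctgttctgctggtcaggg
Timm23 (chr14:32201842-32202141, minus strand): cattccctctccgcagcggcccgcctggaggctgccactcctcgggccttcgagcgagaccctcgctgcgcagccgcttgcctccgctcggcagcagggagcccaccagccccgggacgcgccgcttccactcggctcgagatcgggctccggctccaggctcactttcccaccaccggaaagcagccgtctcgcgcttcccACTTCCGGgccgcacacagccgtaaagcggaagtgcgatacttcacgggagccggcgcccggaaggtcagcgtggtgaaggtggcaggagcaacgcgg

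The Mtx2 window held 2 ETS matches, which begin 25 bases before and 6 bases after the start site. In Mtx3 an ETS match began 13 bases before the start and a YY1 match 16 bases after it, and Mtx1 had a YY1 match 11 bases after the start and no ETS match. The Timm23 match began 48 bases before the start. Windows were on hand for 32 of the 37 genes, of which 8 held the ETS motif (25%): Mtx2, Mtx3, Pmpcb, Timm10, Timm10b, Timm23, Timmdc1 and Tomm70a. The same letters were in 3.89% of all 32851 windows and in 7.22% of the 12693 windows of tested genes. The 32 import genes have 34 windows, and their shares are counted by gene, those of the background by window. Windows of tested genes were matched by current symbol only. Timm10b and Timmdc1, found by older symbols, are therefore counted among the import genes but not in that background. Of the 8 import genes with the ETS motif 6 were lower in dnMKL1, as were 20 of the 24 without it, and the median log2 fold changes of these 2 sets, taken from the authors' deposited table, came to -0.52 and -0.49.

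Other motifs were searched in the same way. GCGCNTGCG, the core of the NRF1 motif, was found for 6 import genes (18.8%) against 12.2% of windows of tested genes. The YY1 motif was found for 3 (9.38%) against 2.65% of those windows. Those 3 were Mtx1, Mtx3 and Timm50, of which Timm50 was lower in dnMKL1 and the metaxins did not pass the test on the authors' scaling. The motif TCAAGGTCA of ERR nuclear receptors was in the Timm8b window alone of the import genes, and in 0.276% of windows of tested genes. No import window held a CArG box, the motif bound by SRF, the partner of MKL1 (1.39% of windows of tested genes did). With so low a share in tested genes, 0 matches in so few windows does not set the import genes apart. Only exact matches were sought, and sites outside the windows were not searched. No match overlapped another in any import window. These are matches of letters, and binding was not measured.

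Most import genes were lower in dnMKL1 cardiomyocytes. Of the 37 genes, 30 were lower and 1 was higher at an adjusted p-value under 0.05, and 6 did not pass. Among all 14056 genes tested 17.4% were lower and 16.6% higher, 34.1% in either direction. The median log2 fold change of the import genes was -0.50, computed from the authors' deposited table, and that of all tested genes was 0.02. Summed over the list, implied means went from 58308 to 38063 normalized counts, and the list took 0.437% of the GFP total and 0.349% of the dnMKL1 total. These totals cover the genes of the authors' deposited table, in which no symbol carried the mitochondrial prefix mt-. Import genes are well expressed, with base means from 37.1 to 12364, and 35 of them reach 100, a level at which 24.9% of all genes were lower, 18.4% higher and 43.4% called either way.

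**Figure D1:**
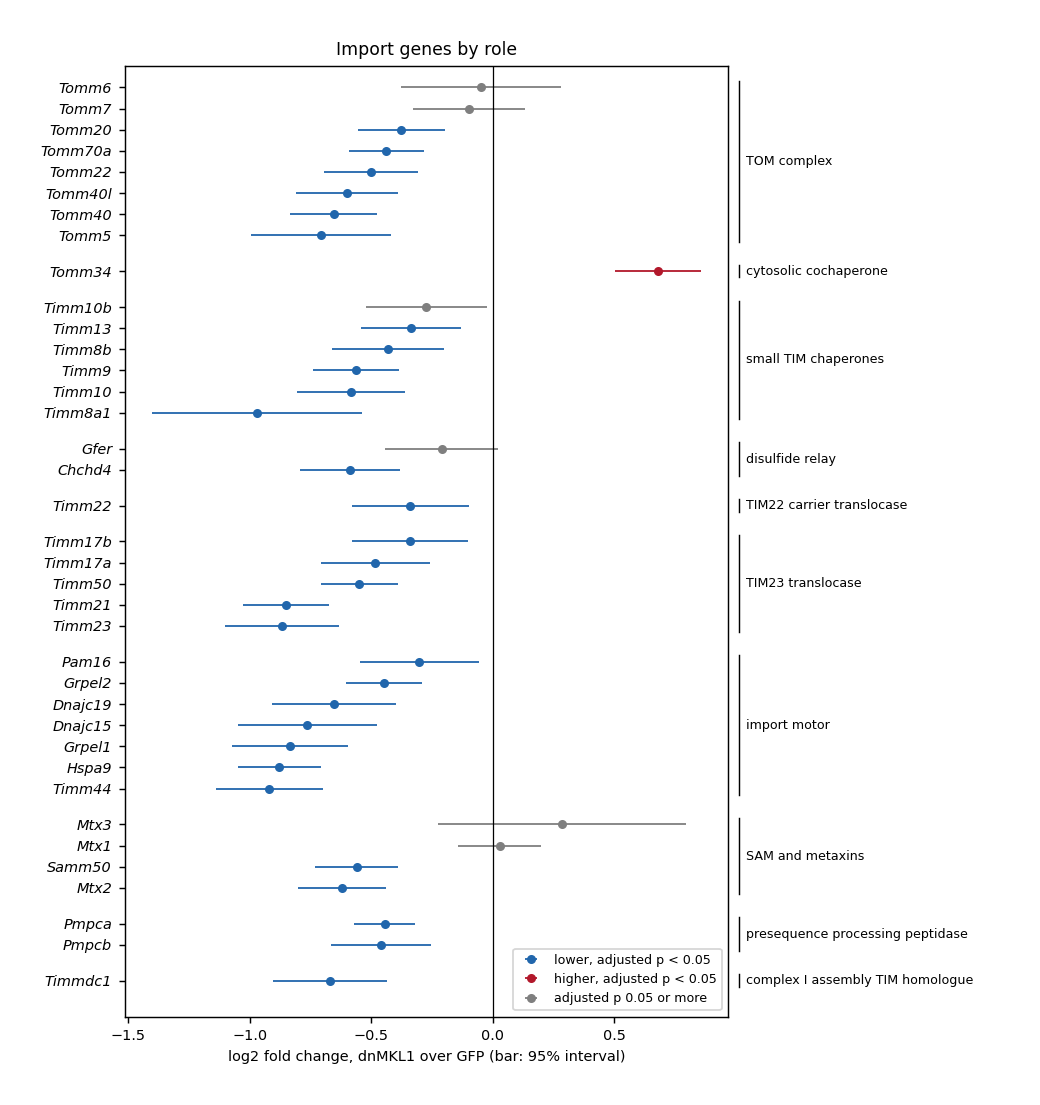
Log2 fold change of each import gene (x axis, dnMKL1 over GFP, authors' scaling) with its 95% interval, grouped by role on the right. Blue points (30) were lower, the red point (Tomm34) was higher and the grey points (6) did not pass an adjusted p-value of 0.05; with equal group totals 19 are lower and 2 higher.

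The direction of part of the list depended on how the groups were scaled. Implied means over all genes summed to 13330302 in GFP and 10915829 in dnMKL1, a log2 ratio of -0.29, and setting these totals equal raises every log2 fold change by the size of that ratio. The median of all tested genes then stood at 0.31 and that of the import genes at -0.21, with 19 import genes lower and 2 higher against a background of 6.60% lower and 40.4% higher. With this scaling Tomm6, Tomm7, Timm10b and Gfer, none of them called under either scaling, turned positive, at 0.24, 0.19, 0.02 and 0.08. Abundant genes weigh most in group totals: Myh6 alone had implied means of 768373 in GFP and 421599 in dnMKL1. Of 140 tested genes with a base mean from 10000 up, 70.7% were lower and 3.57% higher on the authors' scaling. Which scaling is nearer to the RNA content of the cells was not tested. Fold changes below are on the authors' scaling unless the text says otherwise.

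The TOM complex was lower in most of its subunits. Of its 8 genes 6 fell (3 with equal totals) and 0 rose, with a median log2 fold change of -0.47 in the authors' deposited table. Tomm40, the channel of the outer membrane, had implied means of 2028 and 1288 normalized counts in GFP and dnMKL1, and fell with a log2 fold change of -0.65 (SE 0.09, adjusted Wald p = 2.8e-11) in the authors' deposited table. Its relative Tomm40l, with implied means of 1430.2 and 944, also fell, at -0.60 (SE 0.11, adjusted Wald p = 3.4e-07) in the authors' deposited table. Per kilobase of merged exons, Tomm40 exceeded Tomm40l by 1.61 times in GFP and 1.55 times in dnMKL1.

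The receptors of the complex fell as well. Tomm20, which binds presequences, went from 391 to 301 normalized counts, a log2 fold change of -0.38 (SE 0.09, adjusted Wald p = 2.7e-04) in the authors' deposited table. For Tomm22, the central receptor, the change from 1462 to 1032 was -0.50 (SE 0.10, adjusted Wald p = 3.9e-06) in the authors' deposited table. Tomm70a, the receptor for carrier proteins, went from 2909 to 2148, or -0.44 (SE 0.08, adjusted Wald p = 4.5e-07) in the authors' deposited table. Those 3 falls lost their call with equal totals, where the values were -0.09, -0.21 and -0.15.

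The small subunits did not move together. Tomm5 dropped from 676 to 414 normalized counts, with -0.71 (SE 0.15, adjusted Wald p = 1.5e-05) in the authors' deposited table, the lowest value of the complex. Tomm6 had implied means of 113 and 109.5 and Tomm7 of 547 and 511, with log2 fold changes of -0.05 (95% interval -0.38 to 0.28) and -0.10 (95% interval -0.33 to 0.13) computed from the authors' deposited table. Neither passed the test. The intervals of Tomm5 and Tomm6 do not overlap (upper bound -0.42 and lower bound -0.38), and the difference itself was not tested.

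Tomm34 was the only import gene that rose, joined by Mtx1 when the group totals were set equal. It encodes a cytosolic cochaperone that binds Hsp70 and Hsp90 and, unlike the TOM subunits, is not part of the membrane complex. Its implied mean went from 377 to 604 normalized counts, a 1.60-fold rise, with a log2 fold change of 0.68 (SE 0.09, adjusted Wald p = 1.2e-12) in the authors' deposited table. That value lay above 94.6% of the 8641 tested genes that reach a base mean of 100. With equal totals the value was 0.97.

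**Figure D2:**
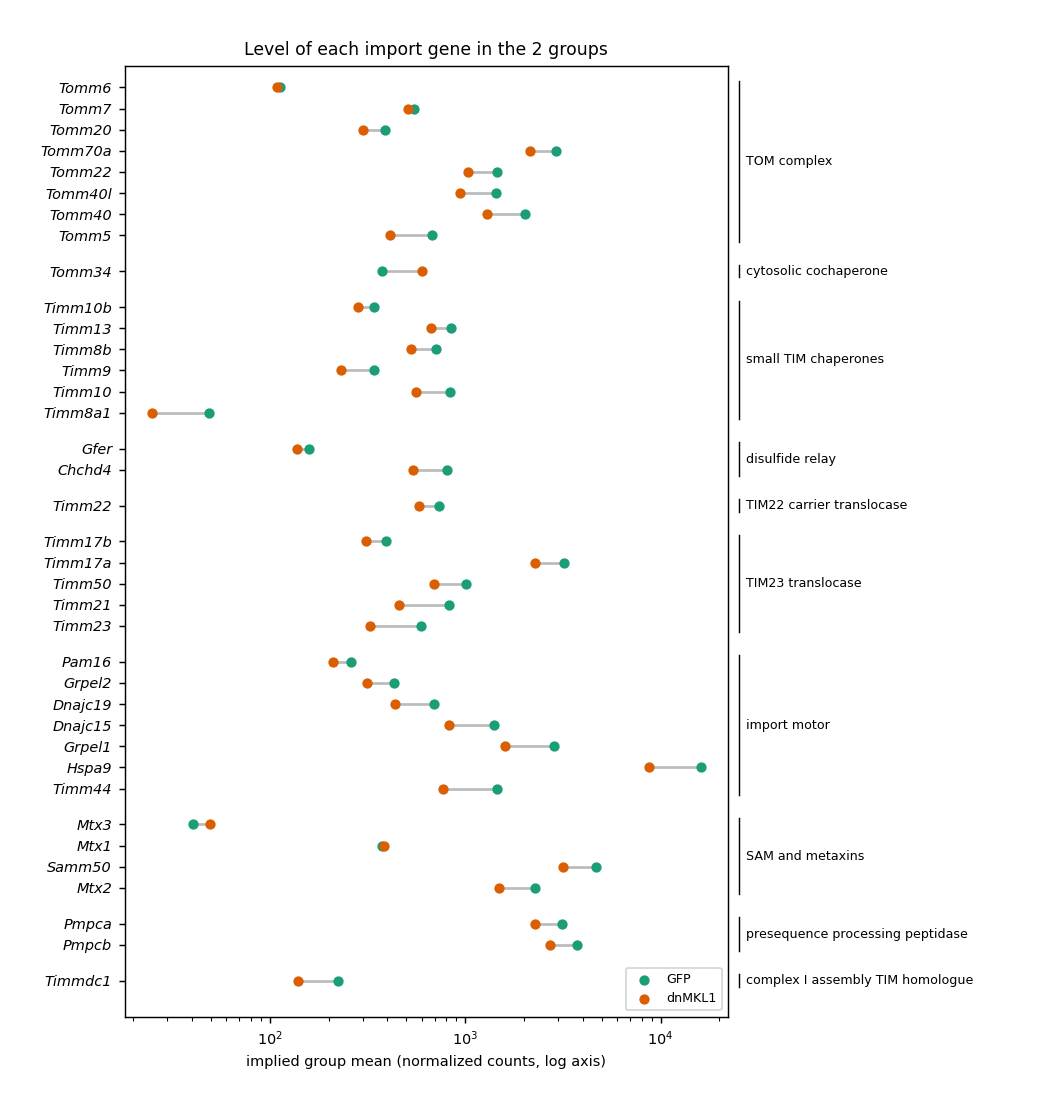
Implied group mean of each import gene (x axis, normalized counts, log axis) in GFP (green) and dnMKL1 (orange), joined by a grey line and grouped by role. Hspa9 stands highest at 16013 and 8714, and the orange point lies to the right only for Tomm34, Mtx1 and Mtx3; no error is drawn here, since the table gives none per group.

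Small TIM chaperones shield membrane proteins on their way through the intermembrane space. Of the 6 genes 5 fell (3 with equal totals) and 0 rose. Timm9 and Timm10, which form one chaperone ring, went from 342 to 231 and from 838 to 559 normalized counts. Their log2 fold changes in the authors' deposited table were -0.56 (SE 0.09, adjusted Wald p = 9.0e-09) and -0.58 (SE 0.11, adjusted Wald p = 2.6e-06), so the values of the partners differed by less than either SE. Timm10b, which sits on the TIM22 complex, had implied means of 342 and 283 and missed the test at -0.27 (SE 0.13, adjusted Wald p = 0.084) in the authors' deposited table.

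The other ring pairs Timm8 proteins with Timm13. Timm13 fell from 845 to 669 normalized counts, or -0.34 (SE 0.11, adjusted Wald p = 0.0057) in the authors' deposited table, a value of -0.05 with equal totals and then without a call. Timm8b fell from 713 to 529, with -0.43 (SE 0.12, adjusted Wald p = 0.0013) in the authors' deposited table, and it too was without a call with equal totals (-0.14). Timm8a1, whose human counterpart is mutated in a deafness and dystonia syndrome, had the lowest value of all import genes, -0.97 (SE 0.22, adjusted Wald p = 8.1e-05) in the authors' deposited table. It rests on implied means of only 49.1 and 25.1 normalized counts, and its interval runs from -1.40 to -0.54 and overlaps that of Timm8b. Per kilobase, Timm8a1 made up 2.45% of the Timm8a1 and Timm8b sum in GFP and 1.70% in dnMKL1.

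The disulfide relay folds small cysteine-rich proteins in the intermembrane space. Chchd4, its oxidoreductase (MIA40), fell from 812 to 539.6 normalized counts, with -0.59 (SE 0.11, adjusted Wald p = 3.1e-07) in the authors' deposited table. Gfer, the sulfhydryl oxidase that recharges Chchd4, had implied means of 159.8 and 138 and a log2 fold change of -0.21 (SE 0.12), which did not pass in the authors' deposited table (adjusted Wald p = 0.17). Substrates of the relay with the twin CX9C fold were followed as a list of 15 genes, of which Ndufs5 was listed at 0. Of the other 14, 11 fell (6 with equal totals, where 2 rose) and 0 rose, with a median of -0.50 computed from the authors' deposited table. By p-value, Cmc2 at -0.83 (SE 0.13), Coa5 at -0.53 (SE 0.09) and Chchd3 at -0.63 (SE 0.12) came first in the authors' deposited table.

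All 5 genes of the TIM23 translocase fell, and 3 of them did so with equal totals. Timm23, the core channel subunit, went from 594 to 325 normalized counts, a log2 fold change of -0.87 (SE 0.12, adjusted Wald p = 2.0e-11) in the authors' deposited table. Timm21, which links TIM23 to the outer membrane gate, fell from 826 to 458, with -0.85 (SE 0.09, adjusted Wald p = 2.9e-19) in the authors' deposited table. Timm50, the receptor of the complex, had implied means of 1016 and 694 and -0.55 (SE 0.08, adjusted Wald p = 2.9e-10) in the authors' deposited table. These 3 genes are the ones that stayed lower with equal totals, at -0.58, -0.56 and -0.26.

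Timm17 proteins line the TIM23 channel and come from 2 genes in the mouse. Timm17a had implied means of 3193 and 2285 normalized counts and -0.48 (SE 0.11, adjusted Wald p = 1.6e-04) in the authors' deposited table. The X-linked Timm17b had 392 and 309.6 and -0.34 (SE 0.12, adjusted Wald p = 0.018) in the authors' deposited table. Per kilobase Timm17a took 72.5% of their sum in GFP and 70.5% in dnMKL1, and their intervals overlap. Timm22, the channel of the separate carrier translocase, fell from 735 to 581, or -0.34 (SE 0.12, adjusted Wald p = 0.02) in the authors' deposited table, with no call with equal totals (-0.05).

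The import motor, which pulls presequence proteins into the matrix, had the lowest median of the roles with more than 1 gene. All 7 of its genes fell (5 with equal totals), with a median of -0.76 computed from the authors' deposited table. Hspa9, the matrix Hsp70 at the heart of the motor (mortalin), went from 16013 to 8714 normalized counts and had the smallest p-value of the list, with -0.88 (SE 0.09, adjusted Wald p = 7.4e-22) in the authors' deposited table. Measured from the median of the genes in its own 10-fold class of base mean, its value was -0.28, still with a call, and the median of the 7 motor genes measured in this way was -0.63. Hspa9 alone made up 27.5% of the summed implied means of the list in GFP. Timm44, which tethers Hspa9 to the channel, fell from 1449.8 to 767, with -0.92 (SE 0.11, adjusted Wald p = 1.1e-14) in the authors' deposited table. Only 2.0% of tested genes that reach a base mean of 100 had a lower value than Timm44.

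Nucleotide exchange on Hspa9 is served by 2 related genes. Grpel1 had implied means of 2841 and 1593 normalized counts and -0.83 (SE 0.12, adjusted Wald p = 2.1e-10) in the authors' deposited table. Grpel2 had 430.5 and 316 and -0.45 (SE 0.08, adjusted Wald p = 3.4e-07) in the authors' deposited table. Grpel1 exceeded Grpel2 by 12.6 times per kilobase in GFP and by 9.66 times in dnMKL1, while the 95% intervals of their log2 fold changes overlapped narrowly (the lower bound of Grpel2 was -0.60 and the upper bound of Grpel1 -0.60).

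The J-domain proteins that stimulate Hspa9 also fell. Dnajc15 went from 1405 to 827 normalized counts, with -0.76 (SE 0.15, adjusted Wald p = 1.9e-06) in the authors' deposited table. Dnajc19, whose loss in humans causes a cardiomyopathy with ataxia, went from 691 to 439, with -0.65 (SE 0.13, adjusted Wald p = 5.6e-06) in the authors' deposited table. Pam16, the J-like regulator that holds them in check, had implied means of 260.2 and 211 and the largest adjusted p-value among the genes called, -0.30 (SE 0.12, adjusted Wald p = 0.046) in the authors' deposited table. Pam16 and Grpel2 were the motor genes without a call with equal totals, at -0.01 and -0.16.

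Genes of the sorting and assembly complex of the outer membrane split. Samm50, which inserts barrel proteins, fell from 4676 to 3171 normalized counts, with -0.56 (SE 0.09, adjusted Wald p = 2.4e-09) in the authors' deposited table. Mtx2 fell from 2277 to 1482, with -0.62 (SE 0.09, adjusted Wald p = 5.7e-10) in the authors' deposited table. Mtx1, the metaxin that pairs with Mtx2, had implied means of 377 and 384 and 0.03 (SE 0.09, adjusted Wald p = 0.86) in the authors' deposited table. The 95% intervals of Mtx1 (-0.14 to 0.20) and Mtx2 (-0.80 to -0.44) do not overlap, and the difference of 0.65 between them was not tested, since both come from the same libraries. With equal totals Mtx1 was higher with a call (0.32) and Mtx2 lower (-0.33).

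Mtx3, another metaxin, was scarce, with implied means of 40.6 and 49.4 normalized counts and 0.28 (SE 0.26, adjusted Wald p = 0.45) in the authors' deposited table. Per kilobase, Mtx1 made up 14.5% of the Mtx1 and Mtx2 sum in GFP and 21.0% in dnMKL1. The windows printed above carry ETS matches for Mtx2, which fell, and Mtx3, which did not pass the test, and the YY1 match they have in Mtx1 and Mtx3 was also found in Timm50, which fell.

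Both subunits of the peptidase that removes presequences fell by nearly the same amount. Pmpca went from 3115 to 2287 normalized counts, with -0.45 (SE 0.06, adjusted Wald p = 6.0e-11) in the authors' deposited table. Pmpcb, the catalytic subunit, went from 3719.9 to 2704, with -0.46 (SE 0.10, adjusted Wald p = 7.9e-05) in the authors' deposited table. Per kilobase the 2 genes stood at a ratio of 1.01 in GFP and 1.02 in dnMKL1. With equal totals they were at -0.16 and -0.17, of which Pmpca alone kept its call. Timmdc1, a relative of the TIM proteins that serves in assembly of respiratory complex I, fell from 223 to 139.9, with -0.67 (SE 0.12, adjusted Wald p = 2.5e-07) in the authors' deposited table.

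**Figure D3:**
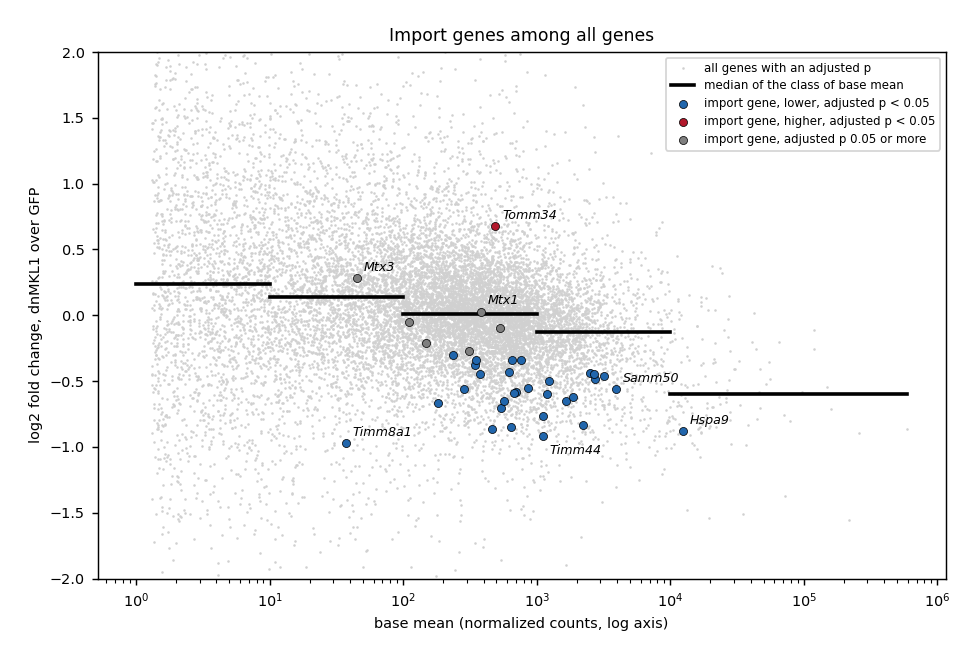
Log2 fold change (y axis, dnMKL1 over GFP) against base mean (x axis, normalized counts, log axis) for 14056 tested genes in grey and the 37 import genes in colour, with the median of each 10-fold class of base mean as a black line. The class medians slope from 0.23 to -0.60 and most import genes lie below the line of their class; 295 genes lie beyond the limits of 2 on the y axis.

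Since fold changes in the whole table slope down with expression level, the import genes were set beside genes of their own class of base mean. From 100 to 1000 normalized counts, the median log2 fold change was -0.40 for the 22 import genes and 0.01 for 6515 tested genes, computed from the authors' deposited table. In that class 16 import genes were lower and 1 higher, while 19.3% of genes were lower and 20% higher. From 1000 to 10000 all 12 import genes were lower, with a median of -0.58 against -0.13 for 1986 genes, of which 40.1% were lower. Hspa9 alone lay in the top class, where the median of 140 genes was -0.60 and 70.7% were lower, so its value of -0.88 stood nearer to its class than those of Timm44 or Grpel1. Centring every gene on the median of its class left 30 import genes lower and 1 higher, with a median of -0.43. Of all tested genes 16.1% were lower and 16.4% higher after this centring.

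Further genes of the import route were counted in the same way. Of 16 such genes, Timm8a2 was listed at 0, Tomm20l was too low for an adjusted p-value, and of the other 14, 10 fell (6 with equal totals) and 1 rose (2 with equal totals). Oxa1l, which inserts proteins into the inner membrane from the matrix side, had a log2 fold change of -0.90 (SE 0.09) in the authors' deposited table. Aifm1, a partner of Chchd4, had -0.88 (SE 0.10), and the outer membrane insertase Mtch2 had -0.47 (SE 0.07) in the authors' deposited table. Its relative Mtch1 was the 1 gene that rose, at 0.30 (SE 0.12) in the authors' deposited table. It is named because it was alone in that direction, after its value was seen.

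A list of mitochondrial chaperones and proteases gave 11 of 12 genes lower (5 with equal totals) and 0 higher, with a median of -0.50 computed from the authors' deposited table. The smallest p-values were those of Dnaja3, Afg3l2 and Hspd1, with -0.89 (SE 0.08), -0.67 (SE 0.07) and -0.79 (SE 0.08) in the authors' deposited table. No test of a difference between these lists and the import genes was run, and their medians of -0.44 to -0.50 lie close to that of the import genes.

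**Figure D4:**
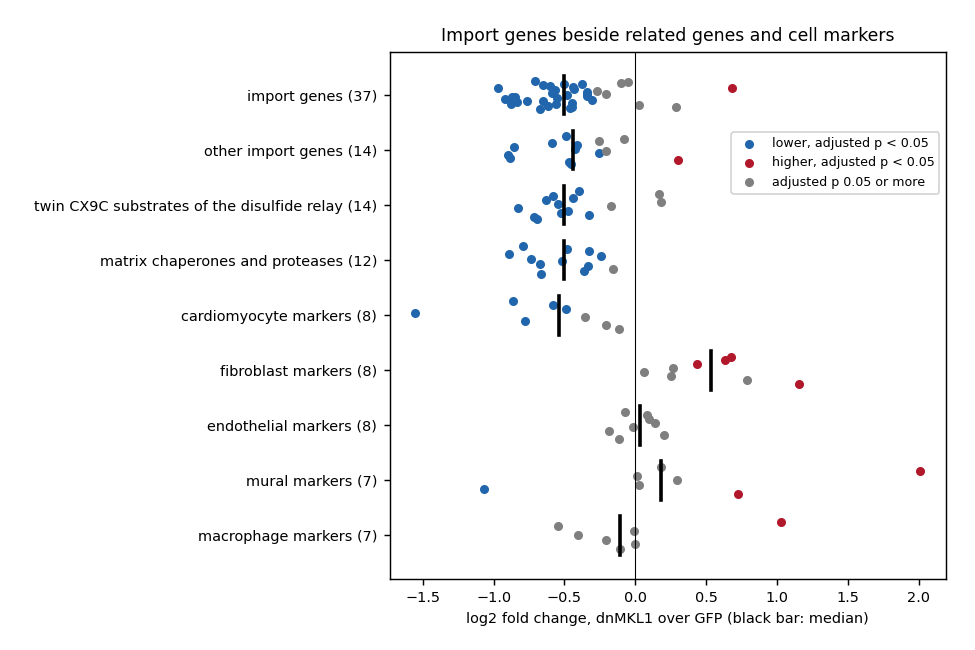
Log2 fold change (x axis, dnMKL1 over GFP, authors' scaling) of each gene with an adjusted p-value in the import list, 3 related lists and 5 lists of cell markers, with the number of genes in brackets and the median as a black bar. Medians of the import list and the 3 related lists lie between -0.50 and -0.44, and the 8 fibroblast markers lie above 0; with equal totals all points shift right by 0.29.

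Markers of heart muscle and of other cells are given beside these falls. Of 8 cardiomyocyte markers 5 fell (4 with equal totals) and 0 rose, with a median of -0.54 computed from the authors' deposited table and a summed implied mean of 1545575 in GFP and 888563 in dnMKL1. All 8 lie in the class of base mean from 10000 up, where the median of 140 genes was -0.60 and 70.7% were lower. Centring on that class therefore had to bring their median near 0, and left 1 lower and 2 higher, with a median of 0.06. Of the import genes only Hspa9 lies in that class, so centred values of both lists do not compare like with like. Of 8 fibroblast markers 4 rose (6 with equal totals) and 0 fell, with sums of 4071 and 6375. Those 4 were Gsn, with implied means of 876 and 1951, and the collagen genes Col1a1, Col1a2 and Col3a1. Dcn, Lum, Tcf21 and Pdgfra did not pass on the authors' scaling. These genes too were named after their values were seen. Sums were 3219 and 3222 for the 8 endothelial markers (0 called by the authors' Wald test, and 0 with an unadjusted p under 0.05). The SEs of these markers ran from 0.25 (Flt1) to 0.52 (Fabp4), against a median of 0.11 for the import genes. Moderate changes could therefore go without a call. For the 7 macrophage markers sums were 150.0 and 134.8 (1 rose, and after centring on the class 1 was lower and 0 higher). The 7 mural markers had sums of 18076 and 15692, a fall that comes from Acta2 alone (10454 and 4999, with a log2 fold change of -1.06). The other 6 had positive log2 fold changes, of which Cspg4 at 2.01 and Myh11 at 0.73 rose, and the list's median was 0.18 in values from the authors' deposited table; Acta2, Cspg4 and Myh11 were named after their values were seen. Of the 6 erythroid markers Hba-a1 and Hba-a2 were listed at 0, Hbb-bt was not matched, and of the other 3, 0 were called by the Wald test and 0 had an unadjusted p under 0.05. The part of cell make-up in the import genes' values was not tested. In sorted bulk samples, fewer cells of a type and less RNA per cell cannot be told apart.

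**Figure D5:**
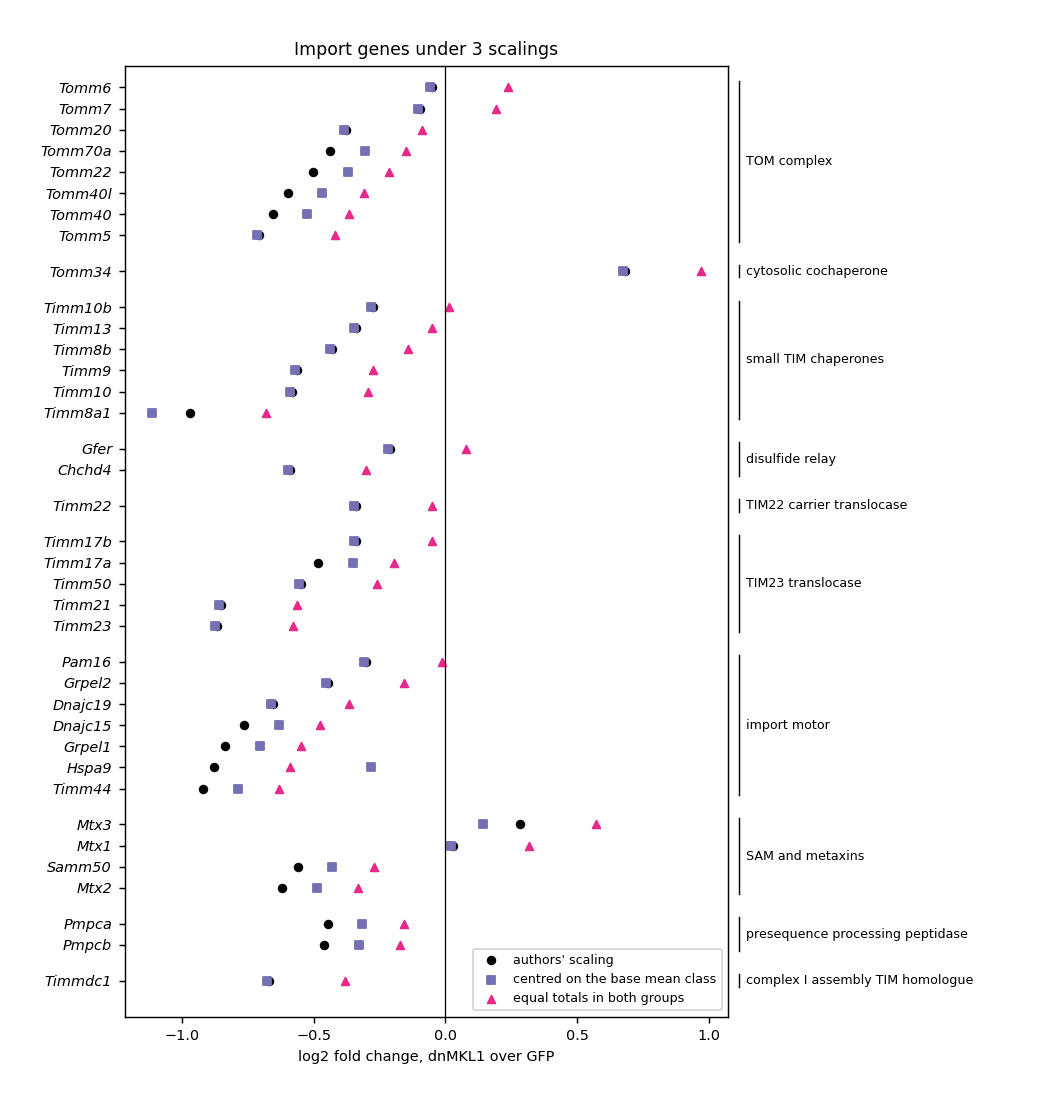
Log2 fold change of each import gene (x axis, dnMKL1 over GFP) on the authors' scaling (black circles), centred on the median of its class of base mean (violet squares) and with equal group totals (pink triangles). Equal totals move all genes right by 0.29, which takes Tomm6, Tomm7, Timm10b and Gfer past 0. Most import genes stay below 0, among them all 5 TIM23 genes and all 7 motor genes (Pam16 at -0.01).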

How the data were processed

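RNA was measured in 10 libraries, 5 GFP and 5 dnMKL1, made from 10 ng of total RNA with 8 PCR cycles and 500 pg of cDNA, per the labels' protocols. Per the submitters' processing notes, the tools were CASAVA 1.8, STAR 2.5.3a and featureCounts of Subread 1.5.2, with build mm10; which annotation was used, and whether reads were counted by strand, is not given in the sources used here, so genes that overlap others or have near-identical copies are uncertain. The deposited base mean is a signal, the authors' average of normalized counts. Deposited fold changes and SEs are log2 values, the deposited Wald statistic is a score, and the deposited p-values are Wald and Benjamini-Hochberg adjusted ones, with the columns of a DESeq2 table per the file headers. Recomputed adjusted p-values differed from the deposited ones by at most 1.4e-07.

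Group means were implied from base mean and fold change, taking groups of equal size. The call was an adjusted p under 0.05 over 14056 genes. The 95% intervals are the fold change plus or minus the normal quantile times SE. Lengths are merged exons of GENCODE M21 and promoters come from RefSeq (GRCm38.p6). Base mean classes are 10-fold wide. Scripts used Python 3.11.15, pandas 2.3.3 and scipy 1.17.1, and were tested on simulated data.

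The members and lists were chosen with earlier results of these data known. Full values were set for import genes called and for paralogue pairs, ranges and counts for the others, and the 3 smallest p-values per related list. Tomm6, Tomm7, Gfer, Mtch1 and the mural, fibroblast and endothelial markers are named outside that rule, after their values were seen. Alternatives were other thresholds, base mean filters and scalings, the last with Wald p-values recomputed and adjusted anew. Depth is estimated, and reads carry no molecular identifiers.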

Additional observations from a re-analysis of the deposited data

How the results depend on the processing

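No paired analysis was possible because the table holds no values per library; for the same reason fits without each replicate, count tests, TMM scaling and low-count filters were not run, so whether 1 library decides a value is unknown. The 30 lower and 1 higher import genes became 27 and 1 at an adjusted p under 0.01 (all tested genes: 13.4% lower and 11.9% higher). Under 0.1 they were 31 and 1 (19.9% and 19.8% of all). With adjustment over every p-value they were 29 and 1 (13.7% and 12.8%). Keeping only base means from 10 up, adjusted anew, gave 30 and 1 (20.6% and 19.1%). Those from 100 up, also adjusted anew, gave 29 and 1 of 35 (25.7% and 19.4%). Asking for an absolute log2 fold change of 0.5 or more left 19 lower and 1 higher, since fewer can pass. Of all tested genes 8.86% were then lower and 10.6% higher. Equal group totals gave 19 lower and 2 higher genes with a median of -0.21 (all tested genes: 6.6% lower and 40.4% higher). Equal totals without Mkl1 also gave 19 and 2 (6.34% and 41.3% of all), with a median of -0.20, by the shift itself. Under these 2 scalings the values of Tomm6 (0.24 and 0.25), Tomm7 (0.19 and 0.20), Timm10b (0.0151 and 0.0250) and Gfer (0.0782 and 0.0882) reversed, none of them called; 11 genes lost their call and Mtx1 gained one. At 0.01, Timm22, Timm17b and Pam16 lost their calls, as did Pam16 with adjustment over every p-value. Centring on the base mean class changed no call of the 37, though it moved Hspa9 to -0.28. It brought the median of the cardiomyocyte markers, all in the top class, to 0.06. At these depths counting error limits Timm8a1 most.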

Other observations

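The precision of the import genes differed from gene to gene, and their SEs did not follow level alone. The SE of their log2 fold changes ran from 0.06 (Pmpca) to 0.26 (Mtx3), with a median of 0.11. Counting error at the estimated depths made up 1.00% of the squared SE for Hspa9, 10.4% in the median gene and 52.5% for Timm8a1, the scarcest gene that was called. The next highest share was that of Gfer, 40.9%.

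Levels per kilobase of merged exons set the genes of one route apart by wide margins. Hspa9 stood highest, at 3715 normalized counts per kilobase in GFP and 2022 in dnMKL1. It was followed in GFP by Timm8b (1376) and Timm10 (1028), and in dnMKL1 by Timm8b (1020.3) and Timm10 (686). Lowest in both groups was Mtx3, at 5.37 and 6.54, below Timm8a1 at 34.6 and 17.6. These levels have no error per group, since the table gives none, and merged exon lengths count every annotated isoform.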
